A study of Trichechus manatus latirostris with 11 samples.

Results

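The genes described here are the integrins, selectins and adhesion machinery of manatee blood cells. They were taken from a list of 49 gene symbols, and a gene counted as a member when the RefSeq symbol of TriManLat1.0 for its transcript record was on that list. Of the 49 symbols, 24 had a record in the deposited table, in 26 of its 15298 rows, because VCL and PTK2B each had 2 records. The other 25 symbols, among them ITGAM, ITGAX, ITGB1, ITGB7, CD44 and PECAM1, were not analysed here. The gene table places these records on no named chromosome, so no coordinates are given.

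The buffy coat, the layer of white blood cells and platelets in centrifuged blood, was sampled from adult Florida manatees (Trichechus manatus latirostris), and its RNA was sequenced after removal of ribosomal and globin RNA. The red tide group comprised 4 animals under treatment for red tide illness at Lowry Park Zoo (ZooTampa), some sampled on arrival and some after a week of care. The control group comprised 7 animals, of which 4 came from Crystal River, 2 from the Indian River Lagoon in Brevard County and 1 from Lowry Park Zoo, where it was recovering from pneumonia. The groups thus also differed in place and date of sampling, and a group difference cannot be told apart from these. The study describes immediate freezing and archiving for the red tide samples only, so storage may have differed as well. By its account each group held 1 female and was otherwise male, and RNA integrity was lowest in a control from Crystal River.

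The deposited table gives, for each record, the mean normalized count (reads divided by the size factor of their library) across the 11 libraries together and within 2 unnamed groups. In every row the overall mean was the mean of both group means weighted by 4 and 7 libraries, to within a relative deviation of 3.34e-09. The first group therefore has as many libraries as there were red tide animals and the second as many as there were controls. These sizes, and a table title that puts red tide first, are what ties them to the animals, and they are called the group of 4 and the group of 7 below. The columns themselves name no group, and the direction in which the study describes its changes would assign them the other way round. Which of both groups holds the red tide animals is therefore not certain, and directions are given by number of libraries only. A group mean carries no spread, so well expressed members could be described but not tested. For weakly expressed members the whole reads of single libraries were recovered from the mean, in 9 rows for all 11 libraries and in 6 further rows for the 4 libraries. The size factors, which scale the counts of each library, were 1.56, 1.03, 0.620 and 0.372 in the group of 4 and 0.702 to 1.73 in the group of 7. Their range of 4.66-fold is wider than that of the reads per sample given by the study. They thus do not stand for the number of reads sequenced alone.

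Integrins are receptors built of an alpha and a beta chain that bind matrix proteins or counter-receptors on other cells. In resting blood cells they are held in a low-affinity shape. Signals through the small GTPase RAP1 bring its effector RIAM (gene APBB1IP), talin and kindlin to the beta chain tail and switch the receptor on. Leukocytes use selectins and their ligands to roll on vessel walls, then integrins such as LFA-1 (ITGAL with ITGB2) and VLA-4 (ITGA4 with ITGB1) to arrest there, while platelets use the fibrinogen receptor (ITGA2B with ITGB3) and the collagen receptor (ITGA2 with ITGB1) to aggregate and to bind exposed matrix.

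Across the adhesion genes, the platelet receptor genes ITGB3, ITGA2B and ITGA2 had the higher mean in the group of 4, and ITGA4, APBB1IP and SELPLG had the higher mean in the group of 7. The shared beta2 chain ITGB2 and talin, TLN1, had nearly equal means. Among weakly expressed members, ITGB8, ITGA3, SELE and JAM3 were higher in the mean of the 4. In all, 8 of the 26 rows (30.8%) were at least 2-fold higher in the mean of the 4, as were 23.9% of all rows of the table, and 5 (19.2%) were at least 2-fold higher in the mean of the 7, as were 10.4% of all rows. On 26 rows these shares are no result about the list, and the members are described gene by gene. The log2 ratio, taken throughout as the 4 over the 7, had a median of -0.0076 in the 26 rows and of 0.14 in the whole table. In the 5238 rows with an overall mean of 100 or more that median was -0.038, and there 8.76% of rows were at least 2-fold higher in the mean of the 4 and 8.09% in the mean of the 7, against 3 and 3 of the 11 member rows.

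**Figure D1:**
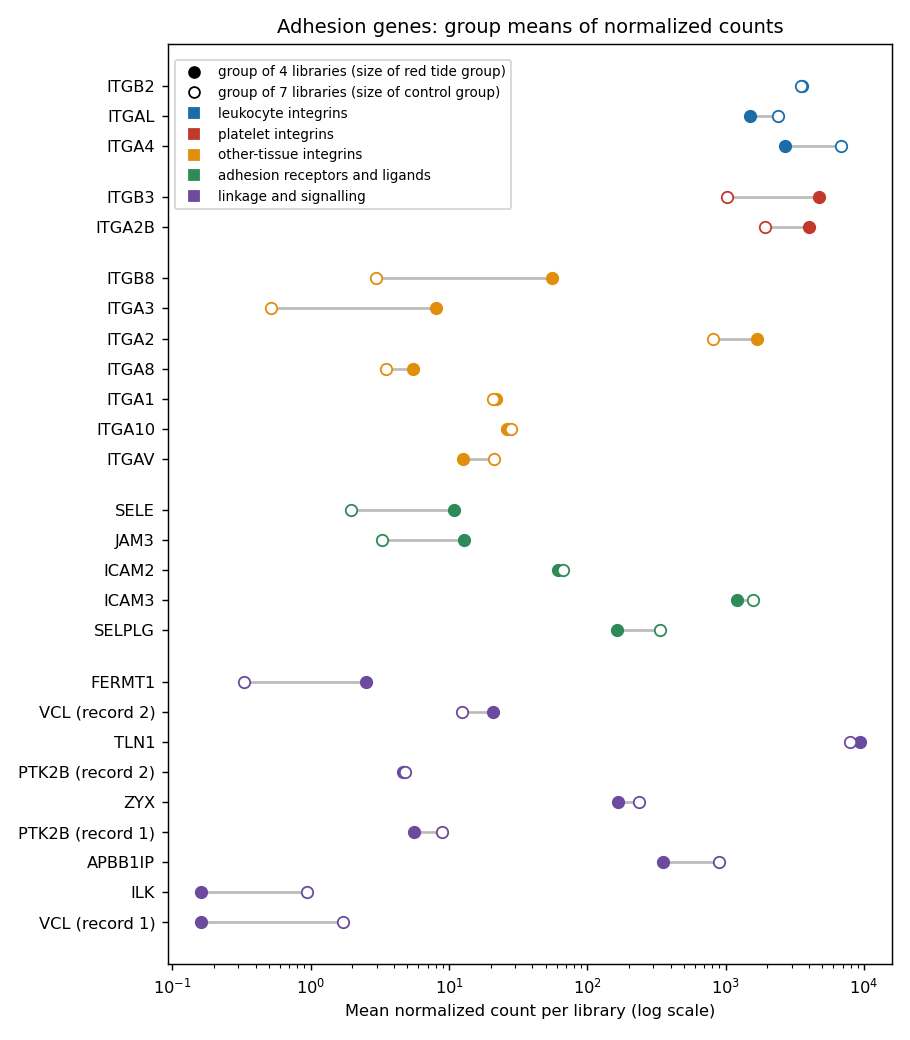
Group means of the 26 adhesion rows, on a log axis of mean normalized counts, with the mean of the 4 as filled and the mean of the 7 as open circles, ordered by role. No error bars can be drawn for group means. ITGB3 stands at 4725 against 1019 and ITGA4 at 2682 against 6826, while the circles of ITGB2 lie on each other.

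Of the leukocyte integrin list, 3 of 8 genes had a row. ITGA4, the alpha4 chain with which lymphocytes and monocytes bind VCAM-1 and fibronectin, had a mean normalized count of 2682 in the group of 4 and of 6826 in the group of 7, 2.55-fold higher in the latter. ITGAL, the alpha chain of LFA-1, had means of 1486 and 2384, which is 1.60-fold higher in the mean of the 7. ITGB2, the beta chain that LFA-1 shares with the Mac-1 integrin of myeloid cells, had means of 3572 and 3481, a log2 ratio of 0.038. Set against ITGB2 in the same group, where a factor common to a whole group cancels but the weight of each library does not, ITGAL came to 0.416 of the ITGB2 count in the mean of the 4 and to 0.685 in the mean of the 7, and ITGA4 to 0.751 and 1.96. These ratios compare counts between groups and not levels between genes, since they are not divided by transcript length.

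Leukocyte content was checked with marker lists in the same means. The 2 rows of markers shared by all leukocytes summed to 2209 in the group of 4 and 2153 in the group of 7, nearly all of it from CD53 with 2180 and 2108. Of 7 neutrophil marker rows, 6 were at least 2-fold higher in the mean of the 7, with a median log2 ratio of -2.70, and the summed mean of the list was 2026 against 12125. The doubt about which group holds the red tide animals applies to this difference as well. MPO, a granule enzyme of neutrophils, was the exception with a log2 ratio of 0.92 at an overall mean of 3.11. Of 6 monocyte rows, 1 was at least 2-fold higher in the mean of the 7 and 2 in the mean of the 4, and the summed means were 2464 and 3040. T cell markers summed to 3569 and 3552 over 2 rows, of which 1 was at least 2-fold higher in the mean of the 7, and B cell markers to 770 and 771 over 3 rows. The 2 erythroid rows summed to 182 and 486, and the 1 NK cell row had 6.95 and 5.41. The part of these marker differences in the integrin values was not tested, and in bulk RNA fewer cells of a type cannot be told apart from less RNA per cell.

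The platelet integrin genes stood on the other side. ITGB3, the beta3 chain of the fibrinogen receptor, had a mean normalized count of 4725 in the group of 4 and of 1019 in the group of 7, 4.64-fold higher in the former. Its partner ITGA2B, which is made almost only by megakaryocytes and platelets, had means of 3996 and 1919, or 2.08-fold. ITGA2, listed with the integrins of many tissues and the alpha chain of the platelet collagen receptor, had means of 1688 and 809, or 2.09-fold. Relative to ITGB2, the mean of the 4 was 4.52-fold higher for ITGB3, 2.03-fold for ITGA2B and 2.03-fold for ITGA2. After centring on the median of all rows, ITGB3 kept a log2 ratio of 2.07, while ITGA2B and ITGA2 each had 0.92 and fell short of 2-fold.

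Genes of the platelet marker list, which holds ITGA2B and ITGB3 itself, moved with these integrins. Each of its 6 rows was higher in the mean of the 4, 5 of them at least 2-fold, with a median log2 ratio of 1.74. TUBB1, the beta tubulin of platelets, had means of 6392 and 1422. The von Willebrand factor receptor genes GP9 and GP1BB had means of 66.1 against 18.6 and of 30.2 against 9.53, and GP1BA had 72.1 against 41.1, from 24.4, 44.8, 179 and 40.4 in the 4 libraries. The amounts of these genes differed between the 4 libraries: GP9 had normalized counts of 48.1, 45.8, 152 and 18.8 in order of falling size factor. GP1BB had 31.4, 24.3, 59.6 and 5.38. The third library, with size factor 0.620, was the highest for all 3 genes. Without it GP1BA turned to a log2 ratio of -0.17, and GP9 went from 3.54-fold to 2.01-fold and GP1BB from 3.17-fold to 2.14-fold. Single libraries could not be read for ITGA2B and ITGB3 at their level, and the part of platelet content in their difference was not tested.

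**Figure D2:**
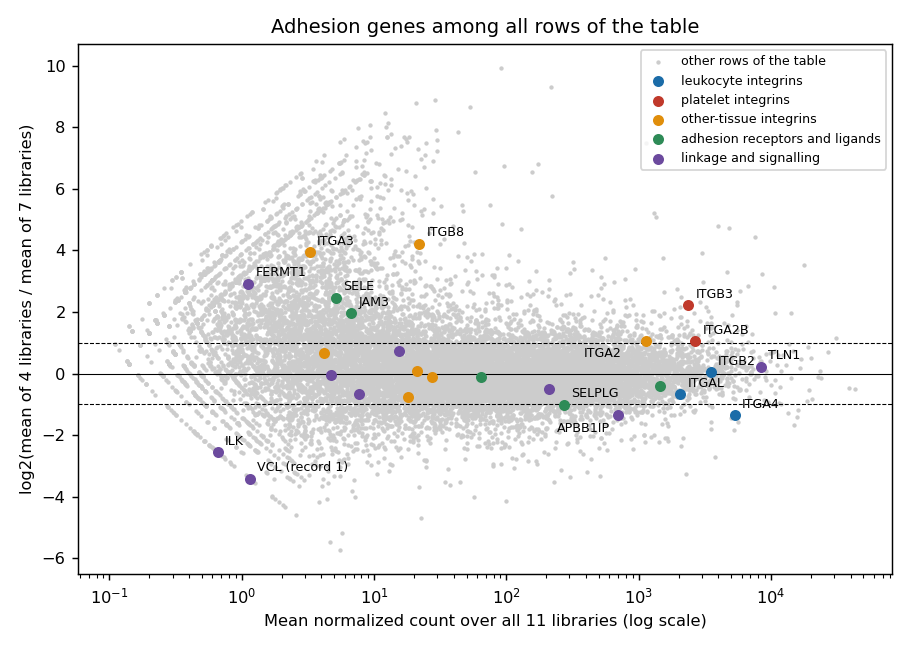
Log2 ratio (the 4 over the 7) against the mean normalized count over all 11 libraries (log axis), with all rows in grey, the 26 adhesion rows in colour and dashed lines at 2-fold. ITGB3 and ITGA4 leave the narrow band of well expressed rows on opposite sides, whereas ITGA3, FERMT1 and ILK lie where rows with few reads spread widely.

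Of the 16 integrins of many or other tissues, 7 had a row, and 3 of these were at least 2-fold higher in the mean of the 4 and none in the mean of the 7, beside 23.9% and 10.4% of all rows. Apart from ITGA2 they were weakly expressed, with means of at most 55.4 in either group. Their values rest on single libraries to a degree that differs from gene to gene.

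ITGB8, whose product pairs with ITGAV to activate latent TGF-beta, had normalized counts of 8.98, 38.0, 64.5 and 110 in the 4 libraries in order of falling size factor, from 14, 39, 40 and 41 reads. In the 7 libraries it had 1.73, 16.3, 0, 0, 1.81, 0.905 and 0. All of the 4 libraries but the first exceeded the highest of the 7, which itself held 78.6% of the signal of the 7. The means were 55.4 ± 43.0 (SD, n = 4) and 2.97 ± 5.95 (SD, n = 7), a log2 ratio of 4.22. Leaving out that single high library of the 7 gave 6.23, and leaving out the library of size factor 0.372 gave 3.64. The two-sided exact permutation test over the 330 splits of 11 libraries gave p = 0.0121, and 0.267 with Benjamini-Hochberg adjustment over the 4443 rows with reads of all 11 libraries. The search for reads stopped at a mean of 80 in the 4 but of 6 in the 7. ITGB8, and likewise ITGA3, SELE and JAM3 below, could be tested only because the mean of the 7 was the lower.

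ITGA3, a laminin receptor chain of epithelia, had normalized counts of 2.57, 0, 8.06 and 21.5 in the 4 libraries, from 4, 0, 5 and 8 reads. In the 7 libraries it had 4 reads in all, each of them from 1 library with a normalized count of 3.62. Both groups thus held libraries at 0, and they overlapped. The means were 8.04 ± 9.60 (SD, n = 4) and 0.517 ± 1.37 (SD, n = 7), with an exact permutation p of 0.0909 (adjusted 0.399). With the library of size factor 0.372 left out, the log2 ratio went from 3.96 to 2.78.

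ITGA8, an RGD-binding chain of smooth muscle and kidney, had normalized counts of 4.49, 2.92, 14.5 and 0 in the 4 libraries. In the 7 libraries the lowest value was 0, the median 2.72 and the highest 8.53. The groups overlapped over nearly their whole range, with means of 5.48 ± 6.30 (SD, n = 4) and 3.47 ± 3.36 (SD, n = 7) and p = 0.491 by the exact permutation test (adjusted 0.815). With the library of size factor 0.620 left out, the log2 ratio turned from 0.66 to -0.49.

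For ITGA1, ITGA10 and ITGAV the 4 libraries could be read, but only the mean of the 7. ITGA1, a collagen receptor chain of activated lymphocytes and stroma, had normalized counts of 19.2, 10.7, 11.3 and 45.7 against a mean of the 7 of 20.8. Its log2 ratio of 0.066 became -0.60 when the library of size factor 0.372 was left out. ITGA10, a collagen receptor chain of cartilage, had 21.2, 15.6, 46.7 and 21.5 against 28.1. ITGAV, the vitronectin receptor chain that pairs with ITGB3 and ITGB8 among others, had 21.2, 13.6, 12.9 and 2.69 against 21.2. The mean of the 7 of ITGA1 and of ITGA10 lay inside the range of the 4 libraries, and that of ITGAV at its upper end. ITGAV, with a log2 ratio of -0.75, was thus not on the side of its partners ITGB3 and ITGB8.

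**Figure D3:**
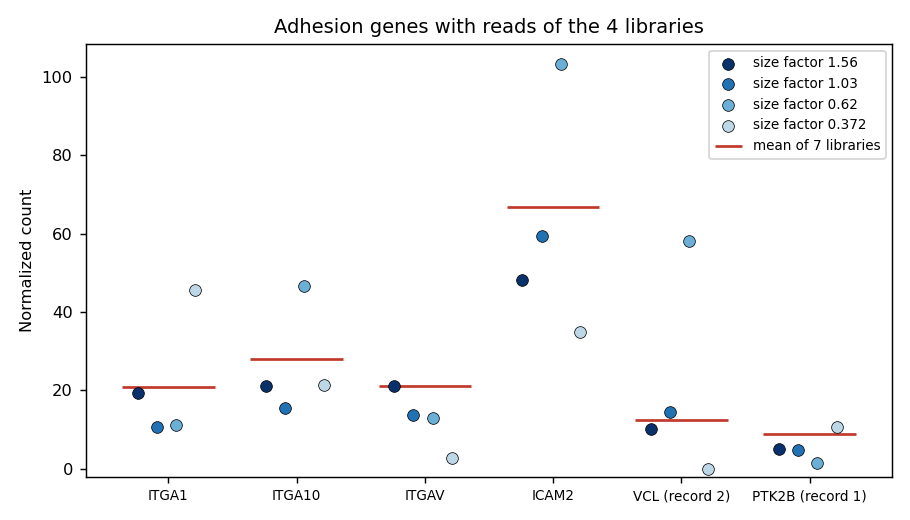
Normalized counts of each of the 4 libraries, shaded by size factor, for the 6 adhesion rows whose reads were recovered in that group alone, with the mean of the 7 as a red line. The library of size factor 0.620 is the highest for ITGA10, ICAM2 and the second VCL record, and that of size factor 0.372 for ITGA1 and the first PTK2B record.

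Among adhesion receptors and their ligands, 5 of 10 genes had a row. SELPLG, which codes for PSGL-1, the main selectin ligand of leukocytes, had means of 165 and 332, or 2.02-fold higher in the mean of the 7. ICAM3, a leukocyte ligand of LFA-1, had means of 1204 and 1578, or 1.31-fold higher in the mean of the 7. ICAM2, an LFA-1 ligand of endothelium, platelets and lymphocytes, had normalized counts of 48.1, 59.4, 103 and 35.0 in the 4 libraries and a mean of the 7 of 66.6. The library of size factor 0.620, in which GP9 and GP1BB were highest, was also the one with the highest ICAM2 count, and without it the log2 ratio went from -0.12 to -0.49.

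JAM3, a junctional adhesion molecule of endothelium and platelets that binds Mac-1, was the member whose groups did not overlap. Its normalized counts were 10.9, 11.7, 9.67 and 18.8 in the 4 libraries, from 17, 12, 6 and 7 reads, and in the 7 libraries the lowest was 0.904, the median 3.27 and the highest 7.24. Every library of both groups held JAM3 reads. The means of 12.8 ± 4.12 (SD, n = 4) and 3.30 ± 2.08 (SD, n = 7) gave a log2 ratio of 1.95, which lay between 1.70 and 2.27 with any of the 11 libraries left out. The exact permutation p was 0.00606, the smallest that these group sizes give, and 0.212 after adjustment over the 4443 rows. Such a separation, with the 4 above the 7, was found in 2.79% of those 4443 rows and in 1 of the 9 member rows tested, JAM3. The lower search limit for the 7 libraries favours separation in this direction among those rows, JAM3 included.

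SELE, the E-selectin of activated endothelium, had normalized counts of 2.57, 8.76, 4.84 and 26.9 in the 4 libraries, from 4, 9, 3 and 10 reads. In the 7 libraries 4 were at 0 and the others had 1.73, 9.05 and 2.85. The groups overlapped, since only the library of size factor 0.372 exceeded the highest of the 7. The means were 10.8 ± 11.1 (SD, n = 4) and 1.95 ± 3.33 (SD, n = 7), with an exact permutation p of 0.0727 (adjusted 0.389). With the library of size factor 0.372 left out, the log2 ratio went from 2.47 to 1.47, and it went to 3.82 with the library of size factor 1.10 left out of the 7. Of 4 endothelial marker rows, FLT1 and ESAM were at least 2-fold higher in the mean of the 4, with 18.6 against 2.67 and 78.2 against 36.9. KDR had 449 against 291, and TIE1 had 0.321 against 1.88. Among the 4 libraries FLT1 and ESAM were highest in that of size factor 0.620, with normalized counts of 64.5 and 190, whereas SELE and JAM3 were highest in that of 0.372, where FLT1 had 5.38 and ESAM 10.8. Both 2-fold differences ended without the library of size factor 0.620, with FLT1 at 1.24-fold and ESAM at 1.11-fold. The summed mean of this list was 546 and 333, and the part of endothelial RNA in the SELE and JAM3 values was not tested.

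**Figure D4:**
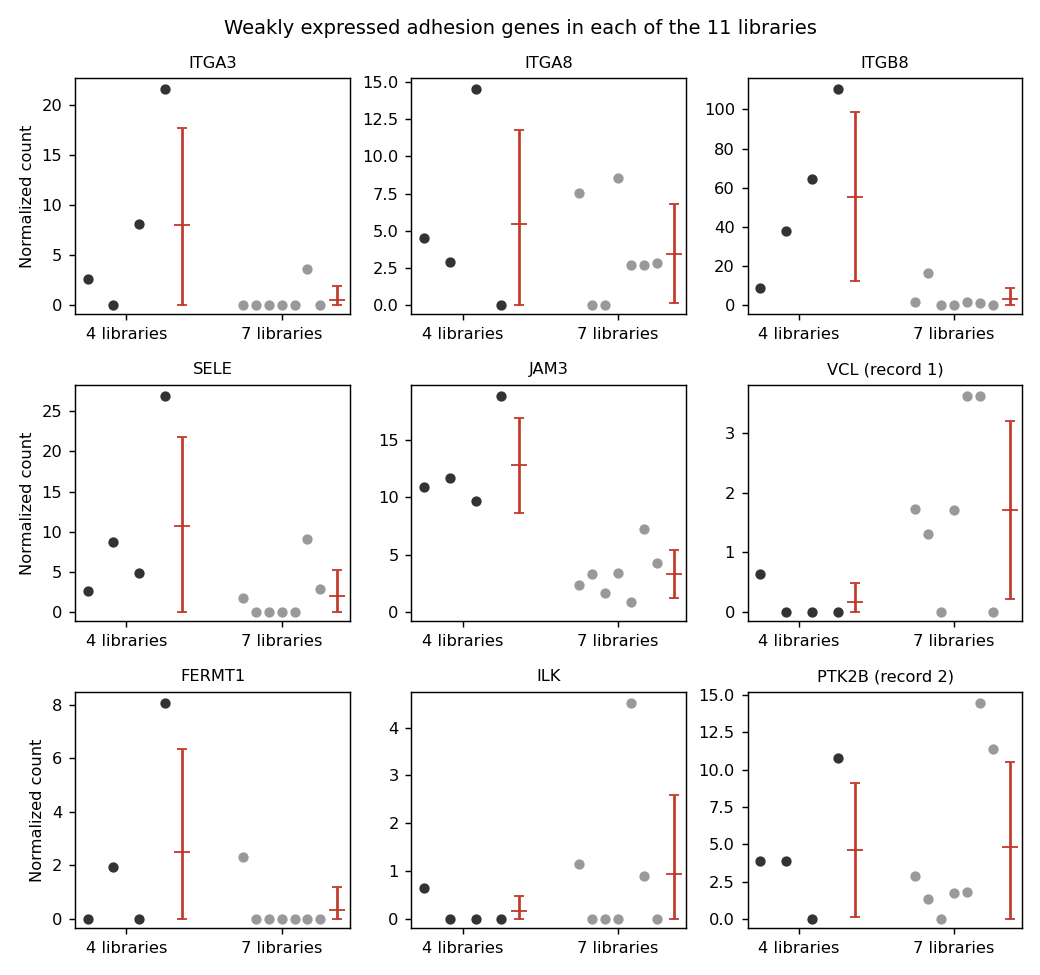
Normalized counts of the 9 adhesion rows with reads of all 11 libraries, with 1 point a library in order of falling size factor and the mean and SD in red (lower end drawn no lower than 0). JAM3 is the panel in which the 4 libraries, at 9.67 to 18.8, all lie above the 7, and in the ITGA3, SELE and FERMT1 panels 1 library of the 4 stands above the rest.

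Of the linkage and signalling genes, 7 of 13 had a row, in 9 rows. TLN1, the talin that joins beta chain tails to actin, had means of 9264 and 7930, a log2 ratio of 0.22, and was the best expressed member. APBB1IP, which codes for RIAM and recruits talin to integrins downstream of RAP1, had means of 350 and 899, or 2.57-fold higher in the mean of the 7. ZYX, the focal adhesion protein zyxin, had means of 166 and 234, or 1.41-fold higher in the mean of the 7. ITGA4, APBB1IP and SELPLG, all at least 2-fold higher in the mean of the 7 with means of at least 100, kept that side after centring on the median of all rows, with log2 ratios of -1.49, -1.50 and -1.15.

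FERMT1, the kindlin of epithelia, had 5 reads in the group of 4, from 2 libraries, and 4 reads in the group of 7, from 1 library. Its normalized counts were 0, 1.95, 0 and 8.07 in the 4 libraries, and 2.31 in the single library of the 7 that held reads. The groups overlapped at 0, and its log2 ratio of 2.92 had an exact permutation p of 0.388 (adjusted 0.713). That ratio was 0.97, short of 2-fold, with the library of size factor 0.372 left out. ILK, the integrin-linked kinase, had 1 read in the group of 4 and 8 in the group of 7, the latter from 3 libraries. It was 5.86-fold higher in the mean of the 7, and the 95% Poisson interval of the single read allows 1.05-fold to 231-fold, while the exact permutation p was 0.424 (adjusted 0.748). Its log2 ratio of -2.55 became -1.10 when the library of size factor 1.11 was left out of the 7. These intervals cover counting error only and are too narrow where both mates of a read pair were counted. Even numbers made up 53.6% of the read numbers from 1 to 20 in the 4 libraries.

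VCL, which codes for vinculin and strengthens the talin link to actin, had 2 records with opposite directions. The record XM_004383215.1 had normalized counts of 10.3, 14.6, 58.0 and 0 in the 4 libraries and a mean of the 7 of 12.4. Its log2 ratio of 0.74 became -0.58 without the library of size factor 0.620. The record XM_004383214.1 had 1 read in the group of 4 and 15 reads, from 5 libraries, in the group of 7, with means of 0.160 and 1.71 and an exact permutation p of 0.0909 (adjusted 0.399). That is a 10.7-fold difference, for which the single read allows 1.92-fold to 422-fold. PTK2B, the kinase PYK2 that acts downstream of integrins in blood cells, likewise had 2 records. XM_004382177.1 had normalized counts of 5.13, 4.87, 1.61 and 10.8 in the 4 libraries and a mean of the 7 of 8.82. XM_004382178.1 had 3.85, 3.89, 0 and 10.8 in the 4 libraries and a range over the 7 of 0 to 14.5 (exact permutation p = 0.982, adjusted 1). The current gene table lists 4 transcript records of VCL and 5 of PTK2B. The authors kept uniquely mapped reads. Their account does not say how reads common to several records were counted, so the values of both genes are uncertain. The same limit applies to members with several listed records but a single row. These were ICAM2 (6 records), APBB1IP (5), ITGAV (4), SELPLG and ITGA10 (3 each), and ITGA4 and TLN1 (2 each).

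The weak members differed in which of the 4 libraries was the highest. Of the 13 rows with at least 2 reads in this group, 8 were highest in the library of size factor 0.372, 4 in that of 0.620, 1 in that of 1.56 and none in that of 1.03. In 9356 rows of the table read in the same way these shares were 35.0%, 31.2%, 17.7% and 16.1%. The 8 rows comprised ITGA1, ITGA3, ITGB8, SELE, JAM3, FERMT1 and both PTK2B records, and the 4 comprised ITGA8, ITGA10, ICAM2 and VCL. A normalized count from 1 read is largest in the library of the smallest size factor. In that library ITGB8, SELE, ITGA3 and FERMT1 also had the most reads of the 4 libraries, with 41, 10, 8 and 3. ITGA1, JAM3 and both PTK2B records had their most reads in the library of size factor 1.56. The part of low read numbers in these shares was not tested.

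Other genes of the adhesion pathway, a fixed list of 84 symbols of which 38 had a record, gave 45 rows. Of these, 8 (17.8%) were at least 2-fold higher in the mean of the 4 and 3 (6.67%) in the mean of the 7, beside 23.9% and 10.4% of all rows, and their median log2 ratio was 0.073. Among those with an overall mean of 10 or more, the highest ratios belonged to THBS1 (thrombospondin 1, a matrix protein released by platelets and monocytes), with means of 19820 and 2099, to ESAM, whose 2.12-fold rests on 1 library as given above, and to FERMT3, the kindlin of blood cells, with means of 1619 and 803. The lowest ratios belonged to BSG (basigin), with means of 8.68 and 25.8, to CSK, the kinase that holds SRC family kinases in check, with 202 and 515, and to B4GALT1, a galactosyltransferase of glycan chains, with 235 and 410. Of these 6 genes, the 4 libraries could be read for ESAM and for BSG, which had 8.34, 9.74, 11.3 and 5.38.

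**Figure D5:**
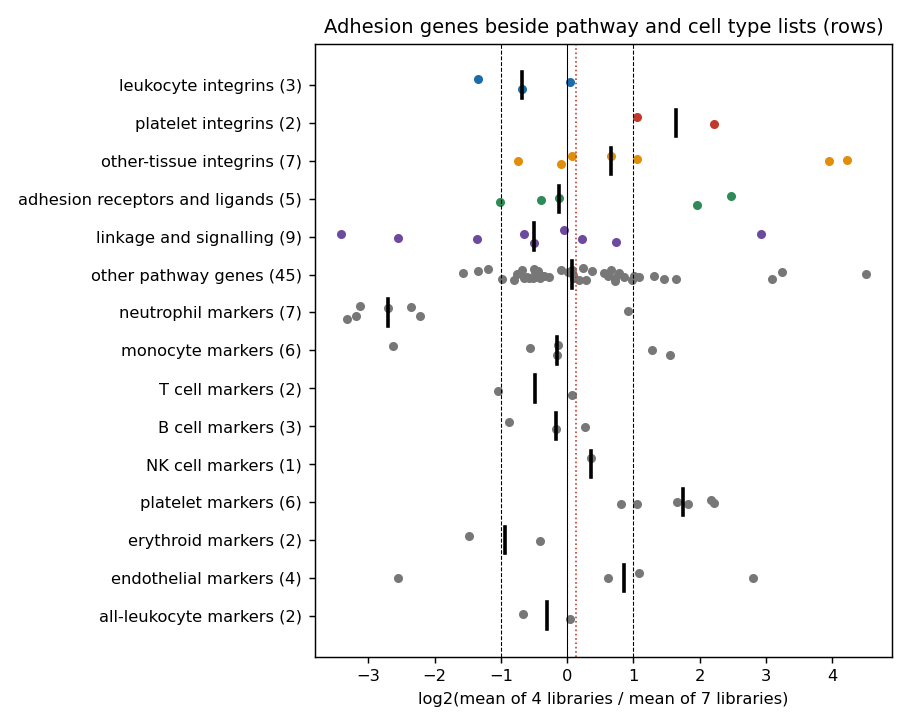
Log2 ratio (the 4 over the 7) for each row (point) of the adhesion groups, the other pathway genes and the cell type marker lists, with list medians as black bars, dashed lines at 2-fold and the median of all rows (0.14) dotted in red. Row numbers stand in brackets. Platelet markers (median 1.74), a list that includes both platelet integrins, lie right of the median of all rows. The neutrophil markers (median -2.70), except MPO, and the 3 leukocyte integrins lie left of it, ITGB2 only slightly, at 0.038.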

How the data were processed

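Reads were trimmed by the authors with Cutadapt and mapped to TriManLat1.0 with Bowtie2. The authors removed PCR duplicates, counted uniquely mapping reads and tested groups with DESeq through DEB. Expression values came from in-house scripts of their sequencing centre with SAMtools. The rules for counting and the annotation release: not given in the sources used here. Of the deposited columns, the signal columns were used, in which the authors averaged counts divided by size factors over 11, 4 and 7 libraries. Further columns (fold change, its log2, p-value, adjusted p-value) hold the authors' own comparison and stayed unused. Columns of single samples were absent (0 left unused), so the planned test of counts per sample was replaced by the alternative written in the same plan, log2 ratios of means with no test.

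Symbols came from the RefSeq gene table, matched by record without version (10080 rows, or 65.9%). The worth of 1 read in each library was found from the lowest means and refined by least squares. Means over the 4 libraries up to 80, and means over the 7 up to 6, were then searched for a unique combination of whole reads, found in 9628 of 9634 and in 4463 of 4505 rows. On simulated data, 100% of 570 means over 4 libraries and 99.1% of 581 means over 7 had a unique combination, always the true one. The lower limit for the 7 libraries favours rows that are higher in the 4 among the 4443 rows with all reads known. Permutation tests were exact and two-sided, on the difference of mean normalized counts (Python 3.11.15, numpy 2.4.6, scipy 1.17.1), with Benjamini-Hochberg adjustment over those rows. Full values were given for leukocyte and platelet integrins, the 10 members of largest ratio, members with all reads known, and the 3 other pathway genes of largest ratio in each direction. Members, lists and rules were chosen with earlier results of these data known. Samples are separate animals by the study's account, but no recovered library is linked to an animal.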

Additional observations from a re-analysis of the deposited data

Results flagged for a closer look

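In 7 of the 24 groups of libraries checked, 1 library stood apart by Dixon's criterion (its gap to the next library over the whole range of the group). Chance marks about 1 group in 20, and more where most libraries hold 0 reads. For ITGB8 in the 7 libraries the value was 0.889, from a normalized count of 16.3 in the library of size factor 1.53, with the next at 1.81. For SELE in the 7 libraries it was 0.685, from 9.05 in the library of size factor 1.10, with the next at 2.85. For ILK in the 7 libraries it was 0.744, from 4.52 in the library of size factor 1.11, with the next at 1.16. For ITGA3 and FERMT1 in the 7 libraries it was 1, since a single library held every read, at 3.62 and 2.31. For ILK and the VCL record XM_004383214.1 in the 4 libraries it was also 1, each from a single read in the library of size factor 1.56.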

How the results depend on the processing

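Of 44 values of list medians and counts recomputed under other settings, 32 stayed within 1.5-fold of those reported and 12 moved. With rows of a mean of at least 10 only, 4 members were at least 2-fold higher in the mean of the 4 and 3 in the mean of the 7, and the median log2 ratio of the other-tissue integrins was 0.066. With a mean of at least 100, a limit chosen after seeing the data, there were 3 and 3. Matching with version numbers left ITGA3 and ITGB8 alone, which gave counts of 2 and 0 and a median of 4.09 for all members and for the other-tissue integrins. A fold of 4 gave counts of 5 and 2, and a fold of 1.5 gave 8 in the direction of the 7. Of 242 values of single genes, 3 moved (ITGA1, VCL and FLT1 without 1 library, given above). A value counted as moved when it changed by more than the SD of the libraries. This limit is widest for rows whose libraries differ most, so the small number that moved says little about those rows. Without the library of size factor 0.372, the log2 ratio went from 2.92 to 0.97 for FERMT1 and from 2.47 to 1.47 for SELE. Neither counted as moved. For member rows without reads of every library, as for ITGA1 and VCL here, the limit was 1.5-fold instead. ITGA8 and GP1BA also changed sign without 1 library. Ratios near 0 (ITGB2, ITGA1, ITGA10, ICAM2 and a PTK2B record) did so after centring or without 1 library, and none that was past 2-fold changed direction. With 1 added to both means ILK, at -0.74, was no longer past 2-fold. No ratio could be formed where the single library with reads in a group was left out (ITGA3, FERMT1, ILK, TIE1 and a VCL record). Leaving out libraries for marker and other pathway genes was chosen after seeing the data. No adjusted permutation p of a member was under 0.05 under any setting: none of the 4443 rows reached it, 661 had an unadjusted p under 0.05 (640 on the log scale), and the smallest adjusted p was 0.212. The 330 splits allow no permutation p under 0.00606. An adjusted value under 0.05 would thus need very many of the 4443 rows at that smallest p, so its absence says little about single members. No paired analysis was possible because the columns carry no replicate number. Depth limits the weak members, several of which rest on fewer than 10 reads a group, and the well expressed ones have no spread at all.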
